A study of Homo sapiens with 12 samples.

Results

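The genes described here are those that carry a CCDC name, short for coiled-coil domain containing, followed by a number. They were chosen by symbol in the probe annotation, which gave 52 genes with 61 probes among 9581 named genes and 15025 probes in all. No measured value entered that rule. The family was nevertheless singled out with earlier results of these arrays known, among them the high value of CCDC112 with miR-4307-3p. That value is therefore given as a description. Counts of called genes include CCDC112 unless it is said to be left out. Leaving it out does not make the other calls independent of those earlier results.

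RNA was measured on 12 Illumina bead arrays from HEK293T, an established line of human embryonic kidney origin that expresses the large T antigen of SV40. All cells were transfected with 200 pmol of a synthetic microRNA duplex bearing biotin and were collected 24 hours later. The 4 groups of 3 arrays were the miR-4307-3p pull-down, the miR-4307-3p input, the miR-3118-3p pull-down and the miR-3118-3p input. Pull-downs held the RNA recovered on streptavidin beads, which bind biotin, and no group received another duplex or none. The design asked which RNAs were recovered with each microRNA.

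Of 8 genes listed for this line, 7 were in the table, and PAX2 was not. In the 6 inputs VIM lay between 11.97 and 12.42, LIN28B between 10.22 and 10.57, and XRCC5 and NEFM between 8.13 and 9.03. KRT8, KRT18 and NEFL lay lower, between 6.34 and 6.93. Of 13 markers of blood, liver, connective tissue and vessel cells, 2 were in the table. ALB, between 6.34 and 6.76 in the inputs, overlapped the 3 lower genes listed for the line, and COL1A1 lay between 5.78 and 6.13. None of 5 markers of motile ciliated cells and none of the CCDC genes listed for motile cilia were in it. All values are the deposited log2 values, with array medians from 7.53 to 7.59, so a pull-down is read relative to the other RNA on its array. The table's lowest value was 5.53. The odd array was pull-down replicate 1 of miR-3118-3p, which correlated at 0.963 and 0.968 with its group, while no pair within another group correlated below 0.988. For the CCDC genes the median SD was 0.14 among miR-4307-3p pull-down arrays and 0.11 among its inputs. It was 0.22 among miR-3118-3p pull-down arrays and 0.15 among its inputs. Whether replicates were separate cultures is not in the labels; p-values therefore reflect the spread among these arrays, which may be technical, and 3 arrays a group limit the precision. For the level of a gene in the inputs, as in any bulk RNA, more cells with it and more RNA per cell cannot be told apart.

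A coiled coil is a pair or bundle of alpha helices wound around each other through a repeating pattern of hydrophobic residues. The CCDC name is a placeholder given to genes whose protein was predicted to hold such a stretch, so its bearers are not a family by descent. Many were later placed at centrosomes, at cilia, on membranes or in RNA processing. A microRNA guides Argonaute proteins to messenger RNAs mainly through its seed, the short stretch near its 5′ end that pairs with the target.

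The mature sequences are shown because pairing is directed by the seed, in which the baits differ. They are those of RefSeq on GRCh38.p14, given 5′ to 3′, with the seed, bases 2 to 8, in capitals. RefSeq names them miR-4307 and miR-3118 with no arm, and both lie toward the 3′ end of their hairpins. The transfected duplexes' own sequences are not given in the labels.
miR-4307-3p, from chr14:26908697-26908715 on the plus strand: aAUGUUUUuuccuguuucc
miR-3118-3p, from chr15:20832838-20832860 on the plus strand and 3 other loci with the same mature sequence: uGUGACUGcauuaugaaaauucu
The seeds AUGUUUU and GUGACUG are unlike, and the perfectly paired sites would read AAAACAU and CAGUCAC in an mRNA. Of the 19 bases of miR-4307, 11 are U, against 9 of 23 in miR-3118. Sites in the CCDC transcripts were not searched, because no transcript sequences were used here.

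With miR-4307-3p, 17 of the 52 CCDC genes rose in the pull-down over its input and 0 fell. That is 32.7% higher, where 8.04% of all genes tested were higher and 6.11% lower (limma, Benjamini-Hochberg adjusted p under 0.05 over 9581 genes). Without CCDC112, whose value was known, 16 of 51 rose (31.4%) and 8 of them by at least 1 (15.7%). At an unadjusted p under 0.05 the CCDC genes numbered 20 higher and 2 lower (38.5% and 3.85%), against 13.9% and 14% of all genes. With CCDC112, rises of at least 1 were found for 9 CCDC genes (17.3%), against 2.2% of all genes. The median difference was 0.14 for the CCDC genes and -0.02 for all genes, and the quartiles of the CCDC genes were -0.10 and 0.65. Most of the CCDC genes were not called, and the 35 that did not pass lay between -0.39 and 0.56. For 23 CCDC genes the groups did not overlap and the pull-down was above, and for 4 it was below, against 19% and 20.1% of all genes. The count of higher CCDC genes ranged from 15 to 20 when 1 array was left out, and the share of all genes from 5.42% to 11%. The count was 20 without pull-down replicate 1 of miR-3118-3p, which enters through the shared spread, and there 11% of all genes were higher.

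**Figure D1:**
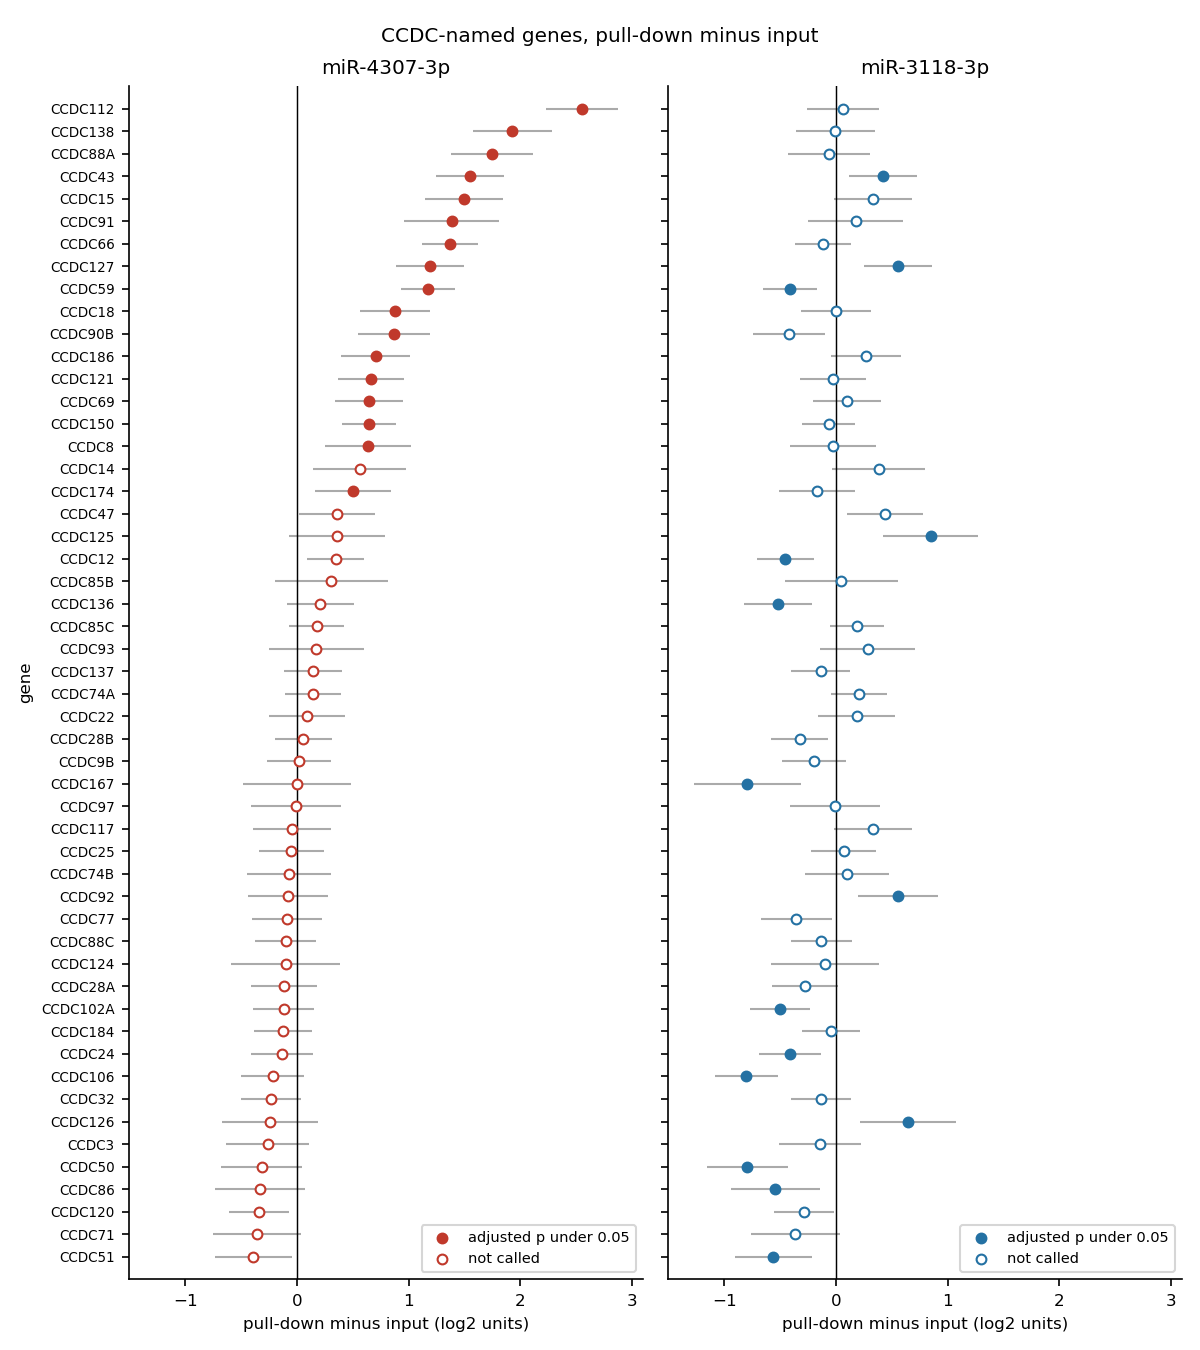
Pull-down minus input for each of the 52 CCDC genes, in log2 units, with miR-4307-3p on the left and miR-3118-3p on the right, and genes ordered by the miR-4307-3p value. Bars are 95% intervals of the fit and filled points had an adjusted p under 0.05, 17 higher and 0 lower with miR-4307-3p, and 5 higher and 10 lower with miR-3118-3p.

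Among proteins of the centrosome, its satellites and the primary cilium, 6 of 13 measured CCDC genes rose with miR-4307-3p (46.2%) and 0 fell, with a median difference of 0.56. Of all 52 CCDC genes 32.7% rose, and of all genes 8.04%. Without CCDC112, 5 of 12 in the list rose (41.7%), with a median of 0.35. This and the other role lists were drawn up with earlier results known, and no difference between lists was tested. CCDC112, a protein of centriolar satellites, had values of 9.45, 9.79 and 9.55 with the miR-4307-3p bait, against 6.85, 7.14 and 7.14 in its input. The pull-down arrays lay well above the inputs, by 2.55 ± 0.15 (SE, n = 3 per group), the 6th largest difference of all genes. Its values with miR-3118-3p were 7.16, 7.51 and 7.23 in the pull-down, against 7.37, 6.97 and 7.37 in the input. Those groups overlapped, with a difference of 0.06 and a 95% interval from -0.26 to 0.38.

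CCDC138, also found at centriolar satellites, had 9.40, 9.98 and 9.73 after miR-4307-3p pull-down, against 7.68, 7.80 and 7.84 in its input. No pull-down value came near the inputs, and the gene rose by 1.93 ± 0.17 (limma, adjusted p = 1.32e-06). CCDC15, a protein of the centriole's inner scaffold, had 7.89, 8.16 and 8.12 in that pull-down, against 6.73, 6.54 and 6.42 in its input. It rose by 1.50 ± 0.16 (limma, adjusted p = 1.43e-05). CCDC66, a satellite and microtubule-binding protein, had 8.16, 8.29 and 8.21 in the pull-down, against 6.95, 6.84 and 6.75 in the input. No value of the groups overlapped, and it rose by 1.37 ± 0.12 (limma, adjusted p = 1.30e-06).

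CCDC18, another satellite protein, had 7.31, 7.63 and 7.53 after miR-4307-3p pull-down, against 6.43, 6.85 and 6.55 in its input, a rise of 0.88 ± 0.15 (limma, adjusted p = 0.000768). CCDC8, a subunit of the 3M complex with CUL7 and OBSL1, had 6.46, 6.53 and 7.07, against 6.13, 6.01 and 6.0. Its pull-down replicate 3 stood above the other arrays, and the rise of 0.64 ± 0.18 (limma, adjusted p = 0.0273) was lost in 4 settings that left out 1 array, with adjusted p up to 0.165. CCDC14, another satellite protein, had 9.22, 9.43 and 9.18, against 8.60, 8.78 and 8.76. The groups did not overlap, but the difference of 0.56 ± 0.20 did not pass the test (adjusted p = 0.0700); it passed with the replicate number as a block (adjusted p = 0.0220). The other 6 genes of the list, CCDC28B, CCDC74A, CCDC74B, CCDC77, CCDC92 and CCDC102A, lay between -0.12 and 0.14.

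**Figure D2:**
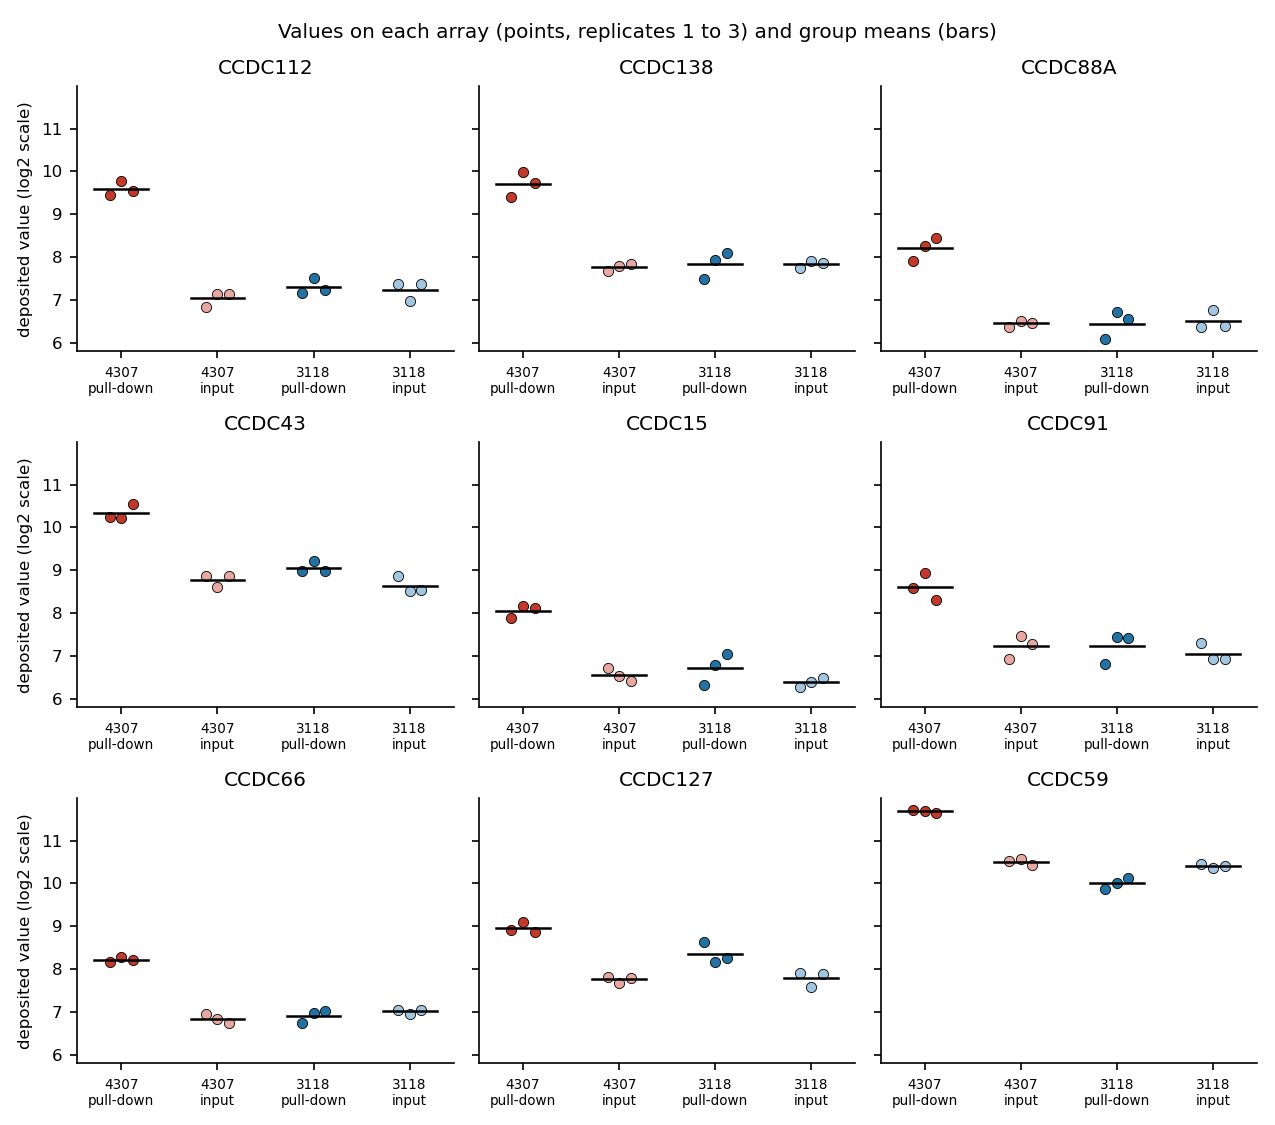
Deposited log2 values on each array for the 9 CCDC genes with a miR-4307-3p difference of at least 1, one panel per gene; points are the 3 arrays of a group and bars their mean. In each panel the miR-4307-3p pull-down lies above the other 3 groups, as from 9.45 to 9.79 for CCDC112.

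Of the 12 genes listed for signalling, the cytoskeleton and adhesion, 3 rose with miR-4307-3p and 0 fell, with a median of -0.05. That is 25% higher, against 8.04% of all genes. CCDC88A encodes Girdin, which binds actin and activates inhibitory G protein alpha subunits. It had 7.92, 8.26 and 8.45 in the pull-down, against 6.39, 6.52 and 6.48 in the input, and rose by 1.75 ± 0.17 (limma, adjusted p = 5.14e-06). CCDC43 had 10.24, 10.21 and 10.55, against 8.88, 8.61 and 8.88, a rise of 1.55 ± 0.14 (limma, adjusted p = 2.70e-06). CCDC69, a regulator of central spindle assembly, had 6.59, 6.23 and 6.68, against 5.84, 5.89 and 5.82. That rise of 0.65 ± 0.14 (limma, adjusted p = 0.00670) began close to the lowest values of the table. The paralogue of CCDC88A, CCDC88C or Daple, had a difference of -0.10, and its groups overlapped.

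Of 7 genes listed for membrane traffic, 2 rose with miR-4307-3p (28.6%, against 8.04% of all genes) and 0 fell. CCDC91, a partner of the GGA adaptors of the trans-Golgi network, had 8.59, 8.95 and 8.32 in the pull-down, against 6.94, 7.47 and 7.28 in the input. All its pull-down arrays were higher, by 1.39 ± 0.20 (limma, adjusted p = 0.000199). CCDC186, a golgin whose worm relative acts in dense-core vesicle maturation, had 6.52, 6.75 and 6.41, against 5.98, 5.77 and 5.81. It rose by 0.71 ± 0.15 (limma, adjusted p = 0.00426) from a low level. Its mean over the 6 inputs was 5.89, and 2.23% of all genes had a lower one. CCDC22 and CCDC93, which form a complex with COMMD proteins in endosomal recycling, had differences of 0.09 and 0.17 that did not pass.

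Of 3 mitochondrial genes, 2 rose with miR-4307-3p (66.7%, against 8.04% of all genes). CCDC127 had 8.92, 9.10 and 8.86 in the pull-down, against 7.83, 7.68 and 7.81 in the input, and rose by 1.19 ± 0.14 (limma, adjusted p = 3.72e-05). CCDC90B, a paralogue of the calcium uniporter regulator MCUR1, had 10.80, 10.86 and 11.09, against 10.13, 9.83 and 10.17, a rise of 0.87 ± 0.15 (limma, adjusted p = 0.00110). CCDC51, also named MITOK, the pore of a mitochondrial potassium channel, had the lowest difference of the CCDC genes, at -0.39 ± 0.16, and did not pass (adjusted p = 0.125). It was called lower with array weights (adjusted p = 0.0110), with the spread of these arrays alone (0.0372) and with the replicate number within each microRNA as a block (0.0317).

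Of 8 genes of splicing, the nucleolus and the ribosome, 2 rose with miR-4307-3p (25%, against 8.04% of all genes). CCDC59, also named TAP26 for its binding to thyroid transcription factor 1, had 11.71, 11.70 and 11.64 in the pull-down, against 10.53, 10.57 and 10.42 in the input. It was the brightest CCDC gene in the inputs, at a mean of 10.46, and rose by 1.18 ± 0.11 (limma, adjusted p = 3.98e-06). CCDC174, linked to the exon junction complex, had 7.78, 8.03 and 8.0, against 7.47, 7.47 and 7.37. Its rise of 0.50 ± 0.16 (limma, adjusted p = 0.0485) was close to the threshold and was lost in 11 of 23 other settings.

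Among the 9 genes in no list, CCDC121 and CCDC150 rose with miR-4307-3p (22.2%, against 8.04% of all genes). CCDC121 had 6.66, 6.62 and 6.56 in the pull-down, against 5.95, 5.98 and 5.91 in the input, a rise of 0.67 ± 0.14 (limma, adjusted p = 0.00433). CCDC150 had 6.36, 6.48 and 6.33, against 5.74, 5.78 and 5.72, a rise of 0.65 ± 0.11 (limma, adjusted p = 0.00108). CCDC150 was the dimmest CCDC gene in the inputs, where 0.0731% of all genes had a lower mean. Signal over background is unknown for such dim genes. The genes nearest to 0 with miR-4307-3p were CCDC167, CCDC97 and CCDC9B, at 0.00, -0.01 and 0.02, with intervals reaching 0.48, 0.39 and 0.31.

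With miR-3118-3p, 5 of the 52 CCDC genes rose in the pull-down over its input and 10 fell. That is 9.62% higher and 19.2% lower, where 12.7% of all genes were higher and 10.9% lower (limma, adjusted p under 0.05). The higher share of the CCDC genes was thus near that of the table, and 0 of them rose by at least 1, against 1.64% of all genes. The median was -0.05, against -0.00 for all genes, with a range from -0.80 to 0.85. The values of the pull-down lay above the input for 7 CCDC genes and below it for 12, against 16.8% and 18% of all genes. These counts leaned on single arrays. Without pull-down replicate 1, the odd array, 9 were higher and 12 lower, and the shares of all genes moved too, to 17.7% and 15.2%. The higher genes numbered 3 without pull-down replicate 2, 1 without input replicate 2 and 2 without input replicate 3, where 8.74%, 8.93% and 8.48% of all genes were higher. The lower genes numbered 6, 6 and 5 without input replicates 1, 2 and 3, where 7.32%, 6.51% and 6.98% of all genes were lower. With the spread of this microRNA's arrays alone, limma called 0 higher and 2 lower, and 6% and 4.27% of all genes. At an unadjusted p under 0.05 the fit over all arrays had 6 higher and 14 lower (11.5% and 26.9%), against 18.5% and 17.9% of all genes.

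CCDC125 had 9.93, 9.99 and 9.11 in the miR-3118-3p pull-down, against 9.03, 8.95 and 8.49 in its input. Its lowest pull-down value was only just above the highest input value, and the rise was 0.85 ± 0.20 (limma, adjusted p = 0.00734). CCDC126 had 6.46, 7.25 and 6.18, against 5.97, 5.96 and 6.03, a rise of 0.64 ± 0.20 (limma, adjusted p = 0.0310) in which replicate 2 was the highest. CCDC127 rose here too, with 8.65, 8.17 and 8.27, against 7.92, 7.60 and 7.89, by 0.56 ± 0.14 (limma, adjusted p = 0.0119). CCDC92, a centriole protein, had 8.99, 8.27 and 8.46, against 8.12, 8.07 and 7.86, a rise of 0.56 ± 0.17 (limma, adjusted p = 0.0271). CCDC43 rose by 0.42 ± 0.14 (limma, adjusted p = 0.0443), a call lost in 11 of 23 other settings. The calls of CCDC125, CCDC127 and CCDC92 were lost in 1, 2 and 4 of 23, and that of CCDC126 in 6 of 22. Without pull-down replicate 1, the odd array, CCDC92 stood at 0.35 (limma, adjusted p = 0.0713). Without pull-down replicate 2, CCDC126 stood at 0.33 (limma, adjusted p = 0.125).

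CCDC106, a protein reported to promote degradation of p53, had 9.17, 9.30 and 9.56 in the miR-3118-3p pull-down, against 10.08, 10.21 and 10.14 in its input. It fell by 0.80 on the log2 scale (SE 0.13; limma, adjusted p = 0.000922) and was the only one of the 15 calls with this microRNA that held in all 23 other settings. CCDC50, a ubiquitin-binding autophagy receptor, had 8.06, 8.31 and 8.49, against 9.33, 9.05 and 8.86, and changed by -0.79 ± 0.17 (limma, adjusted p = 0.00461) by its brightest probe. CCDC167 changed by -0.79 ± 0.23 (limma, adjusted p = 0.0203) with overlapping groups, since replicate 1 of the pull-down had 9.44 and the other arrays of that group 8.33 and 8.67, against 9.97, 9.43 and 9.41 in the input.

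In the list of splicing, the nucleolus and the ribosome, 3 of 8 genes fell with miR-3118-3p (37.5%), 0 rose and all 8 differences were below 0. Of all genes 10.9% fell and 12.7% rose, and 49.8% had a difference above 0. With 8 genes, in a list drawn up with earlier results known, these counts are a description. The 3 that fell were CCDC12, a spliceosome protein, at -0.45 ± 0.12, CCDC59 at -0.41 ± 0.11, and CCDC86, a nucleolar protein, at -0.54 ± 0.19 (limma, adjusted p = 0.0135, 0.0175 and 0.0478). The call of CCDC86 was lost in 14 of 23 other settings. The other genes that fell were CCDC51 at -0.56 ± 0.16, CCDC136, needed for acrosome formation in mice, at -0.52 ± 0.14, the centrosomal CCDC102A at -0.50 ± 0.13 and CCDC24 at -0.41 ± 0.13 (limma, adjusted p = 0.0210, 0.0160, 0.0111 and 0.0337). CCDC138, CCDC18 and CCDC97 were nearest to 0 with this microRNA, at -0.00, 0.00 and -0.01, with intervals reaching 0.35, 0.32 and 0.39 above 0.

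The enrichments were then set against each other as the miR-4307-3p difference minus the miR-3118-3p difference. For 14 of the 52 CCDC genes the enrichment was higher with miR-4307-3p and for 0 it was lower. That is 26.9%, where 4.73% of all genes were higher and 2.86% lower (limma, adjusted p under 0.05). Without CCDC112 the count was 13 of 51 (25.5%). At an unadjusted p under 0.05 they numbered 21 and 2 (40.4% and 3.85%), against 9.59% and 10% of all genes. A difference of at least 1 was called for 9 CCDC genes, CCDC112 among them, against 2.76% of all genes. The median was 0.27 for the CCDC genes and -0.02 for all genes. Without pull-down replicate 1 of miR-3118-3p, 18 were higher and 1, CCDC126, lower, where 6.18% and 7.87% of all genes were. CCDC92 was lower without replicate 2 of that pull-down, where 2.46% of all genes were. CCDC125 and CCDC126 were lower without replicate 3, where 4.16% of all genes were. In the fit over all arrays CCDC126 stood at -0.89 ± 0.29 (adjusted p = 0.0758), and it was called lower with the replicate number as a block (adjusted p = 0.0441).

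CCDC112 differed between the microRNAs by 2.49 ± 0.22, given as a description. CCDC138 had 1.93 ± 0.24, CCDC88A 1.81 ± 0.25 and CCDC59 1.59 ± 0.16 (limma, adjusted p = 7.79e-05, 0.000199 and 1.61e-05). CCDC59 was called higher with miR-4307-3p and lower with miR-3118-3p, as were 69 of the 9581 genes. Its lower call was lost in 5 of 23 other settings. In the fit over all arrays with brightest probes no other CCDC gene was called in opposite directions. CCDC90B was so by its dimmer probe, by the mean of its probes, with array weights and after median scaling, among other settings. CCDC12 was called in opposite directions in 4 settings, in which its lower call with miR-3118-3p held. With miR-4307-3p it was higher with array weights (limma, adjusted p = 0.0137), after cyclic loess (0.0279) and with the mean of probes (0.0485). It was also higher without pull-down replicate 1 of miR-3118-3p (0.0405). CCDC66 had 1.48 ± 0.17, CCDC90B 1.29 ± 0.22 and CCDC91 1.21 ± 0.28 (limma, adjusted p = 4.62e-05, 0.00117 and 0.0135). CCDC15 stood at 1.17 ± 0.23, CCDC43 at 1.12 ± 0.20 and CCDC18 at 0.88 ± 0.21 (limma, adjusted p = 0.00458, 0.00225 and 0.0148). For CCDC12, at 0.80 ± 0.17 (limma, adjusted p = 0.00675), the miR-4307-3p pull-down had 9.44, 9.16 and 9.27, against 8.88, 8.94 and 9.0 in its input. The miR-3118-3p pull-down had 8.38, 8.26 and 8.47, against 8.73, 8.91 and 8.83 in its input. Neither microRNA's groups overlapped, and they lay on opposite sides of their inputs.

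CCDC150 at 0.71 ± 0.16, CCDC136 at 0.73 ± 0.20 and CCDC121 at 0.69 ± 0.20 were also higher with miR-4307-3p (limma, adjusted p = 0.00977, 0.0352 and 0.0416). The calls of CCDC136 and CCDC121 were lost in 9 and 8 of the settings that left out 1 array. CCDC127, which rose with both microRNAs, had a difference between them of 0.63 ± 0.20 that did not pass (adjusted p = 0.0746; 95% interval from 0.20 to 1.07). It was called higher with array weights (adjusted p = 0.0186), with the replicate number within each microRNA as a block (0.0294) and without pull-down replicate 1 of miR-3118-3p (0.00731). CCDC167, at 0.79 ± 0.32 (adjusted p = 0.174), was called higher in those 3 settings too (adjusted p = 0.0128, 0.00966 and 0.00367) and with the replicate number as a block (0.0342).

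**Figure D3:**
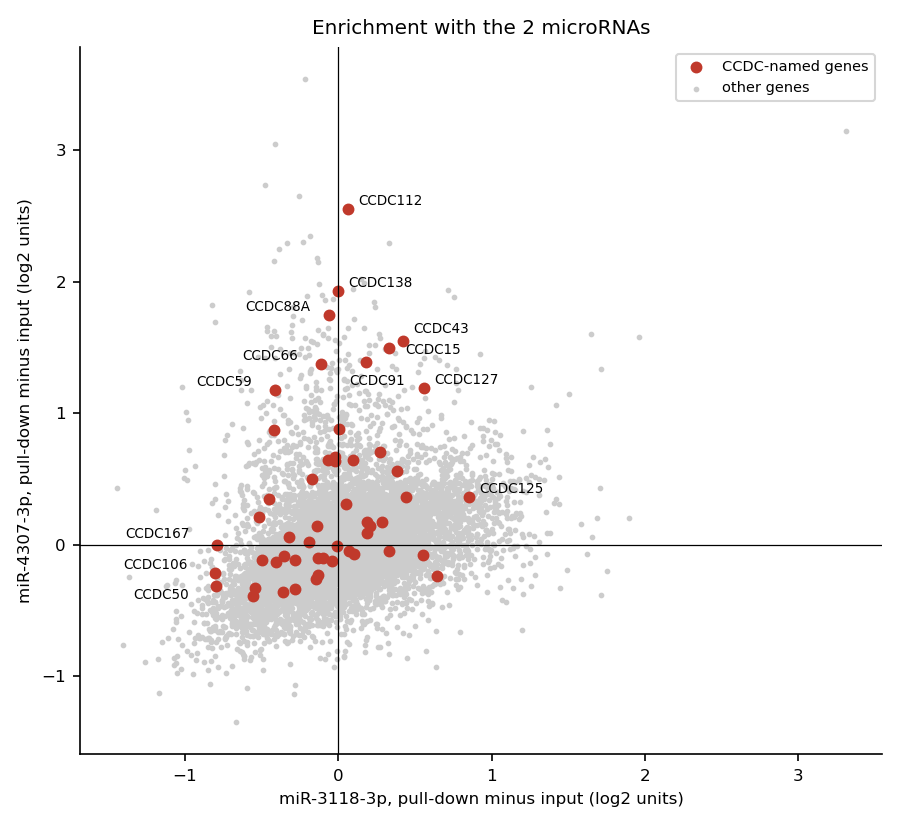
Pull-down minus input with miR-4307-3p (vertical axis) against that with miR-3118-3p (horizontal axis), in log2 units, one point per gene, with the 52 CCDC genes in red over the other genes in grey. CCDC112, CCDC138, CCDC88A and CCDC66 lie high on the vertical axis and between -0.11 and 0.06 on the horizontal one. CCDC43, CCDC15, CCDC91, CCDC127 and CCDC59 also lie above 1 on the vertical axis. On the horizontal axis these lie at 0.42, 0.33, 0.18, 0.56 and -0.41.

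Both microRNAs together had 2 CCDC genes higher with both, CCDC43 and CCDC127, and 0 lower with both, 3.85% and 0% of them, against 1.64% and 3.21% of all genes. Called with neither were 23 of 52 (44.2%), against 68% of all genes. Across the 52 genes the enrichments had a Pearson correlation of 0.302 and a Spearman correlation of 0.423, against 0.351 and 0.444 across all 9581 genes. The comparisons share no array but were normalized together, and genes are not independent replicates. Signs matched for 61.5% of the CCDC genes and 66.4% of all genes.

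The inputs of the CCDC genes did not pass any test between the microRNAs. In miR-4307-3p input minus miR-3118-3p input, 0 CCDC genes and 0% of all genes were called higher or lower (limma, adjusted p under 0.05), and at an unadjusted p under 0.05 the CCDC genes numbered 0 and 0, against 110 higher and 50 lower of all genes. The CCDC values ranged from -0.25 to 0.27, with a median of 0.03. The inputs did not overlap for 3 CCDC genes above and 2 below, against 5.44% and 3.79% of all genes. CCDC112 stood at -0.20 ± 0.15, with overlapping inputs.

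Input levels spread widely over the CCDC genes, from a mean of 5.77 for CCDC150 to 10.46 for CCDC59, with a median of 7.51 against 7.76 over all genes. Levels of different genes come from different probes and are not ranked further. The 17 genes that rose with miR-4307-3p had a median input level of 6.94 and those not called 8.06. Over all genes the order ran the other way, with 8.10 for those called higher and 7.61 for those not called. The 10 genes that fell with miR-3118-3p had a median input level of 8.98, the 5 that rose 8.08 and those not called 7.14, against 8.91, 7.92 and 7.54 over all genes. The part of the input level in the calls was not tested.

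For 8 CCDC genes the table held several probes, and they are compared here in a fit over every probe. With miR-4307-3p all probes of a gene had the same sign for 6 of 8, against 73.1% of 2331 genes with several probes. For miR-3118-3p this held for 3 of 8, against 70.4%, and for the difference of enrichments for 5 of 8, against 72.2%. With so few genes the shares are a description. The count of 3 was 5 after quantile normalization and without pull-down replicate 3 of miR-3118-3p.

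**Figure D4:**
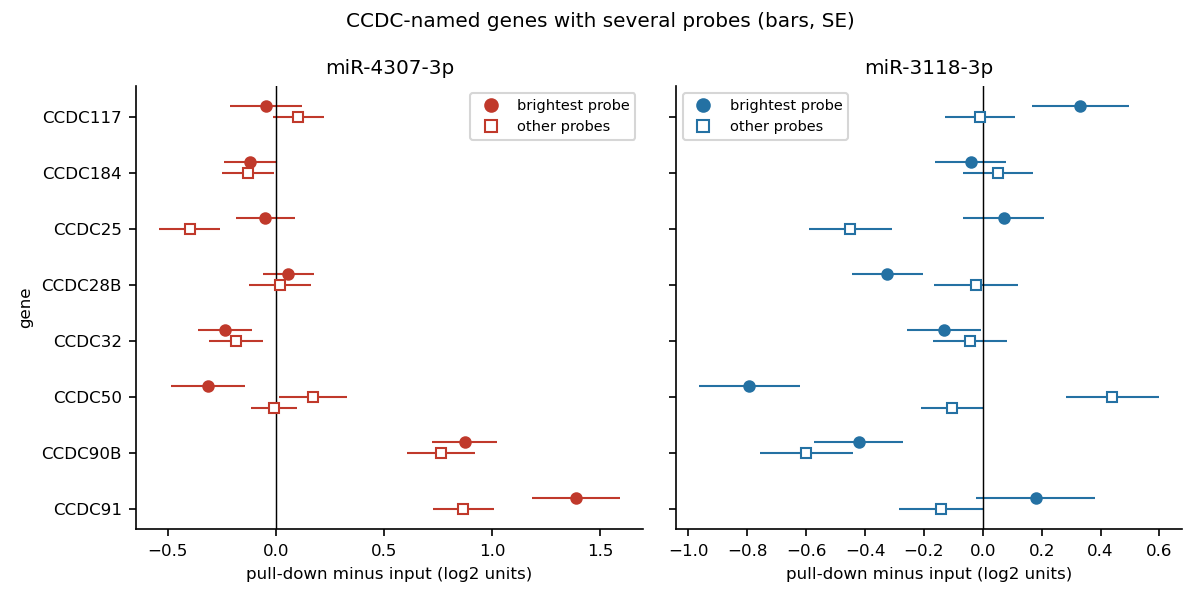
Pull-down minus input for each probe of the 8 CCDC genes with several probes, in log2 units, with miR-4307-3p on the left and miR-3118-3p on the right; filled circles are the brightest probe, open squares the others, and bars the SE. Both probes of CCDC90B and of CCDC91 lie above 0 with miR-4307-3p, and those of CCDC50 lie on both sides of 0 with either microRNA.

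Of the 17 genes that rose with miR-4307-3p, only CCDC90B and CCDC91 had several probes, and within each gene these went together. The other genes that rose each had a single probe, so no other probe could be compared. CCDC90B had 0.87 by its brighter and 0.76 by its dimmer probe with that microRNA, both called higher, where 7.86% of all probes were higher and 8.3% lower. With miR-3118-3p they stood at -0.42 and -0.60, of which the dimmer was called lower (limma, adjusted p = 0.0132 over all probes), where 12.8% of probes were lower. The brighter missed the threshold (adjusted p = 0.0552). The difference between the microRNAs was 1.29 and 1.36 by these probes, both called, where 4.82% of probes were higher and 2.77% lower. CCDC91 had 1.39 and 0.87 with miR-4307-3p, both called, while with miR-3118-3p its probes had opposite signs, 0.18 and -0.14, and neither passed.

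Of the other 6 genes with several probes, 4 had probes of one sign with miR-4307-3p and 2 with miR-3118-3p. The 3 probes of CCDC50 gave -0.79, 0.44 and -0.11 with miR-3118-3p, from the brightest to the dimmest. The first was called lower, the second lay above the input on all arrays without passing (adjusted p = 0.0545 over all probes), and with the mean of the probes CCDC50 stood at -0.15 and was not called (adjusted p = 0.369). The array's annotation ties these 3 probes to different transcript records. CCDC25, described as a sensor of extracellular DNA, had 0.07 by its brighter probe and -0.45 by its dimmer one with miR-3118-3p, and the dimmer was called lower (limma, adjusted p = 0.0311 over all probes). The same probes had -0.05 and -0.40 with miR-4307-3p, neither called. CCDC117 had -0.05 and 0.10 with miR-4307-3p and 0.33 and -0.01 with miR-3118-3p, none called. CCDC184 had -0.12 and -0.13 with miR-4307-3p and -0.04 and 0.05 with miR-3118-3p, also not called. The probes of CCDC28B, linked to Bardet-Biedl syndrome as a modifier, and of CCDC32, a factor of clathrin adaptor assembly, shared a sign within each microRNA and were not called.

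The CCDC genes were set beside similar name groups, as a description. Of 39 measured genes that once carried a CCDC symbol, 8 were higher and 4 lower with miR-4307-3p, 20.5% and 10.3%. With miR-3118-3p, 5 were higher and 8 lower, 12.8% and 20.5%. Their median differences were 0.04 and -0.21. Of 26 genes named CEP, for centrosomal protein, 2 of which once had a CCDC symbol, 8 were higher and 1 lower with miR-4307-3p, 30.8% and 3.85%. With miR-3118-3p, 3 were higher and 1 lower, 11.5% and 3.85%. Their medians were 0.29 and 0.01. In the difference of enrichments 8 genes once named CCDC were higher and 2 lower (20.5% and 5.13%), and 8 CEP genes were higher and 1 lower (30.8% and 3.85%). Of all genes, 8.04% were higher and 6.11% lower with miR-4307-3p, 12.7% and 10.9% with miR-3118-3p, and 4.73% and 2.86% in the difference. With miR-3118-3p, 19.2% of the CCDC genes were lower, near the share of the genes once named CCDC. No difference between these name groups was tested.

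**Figure D5:**
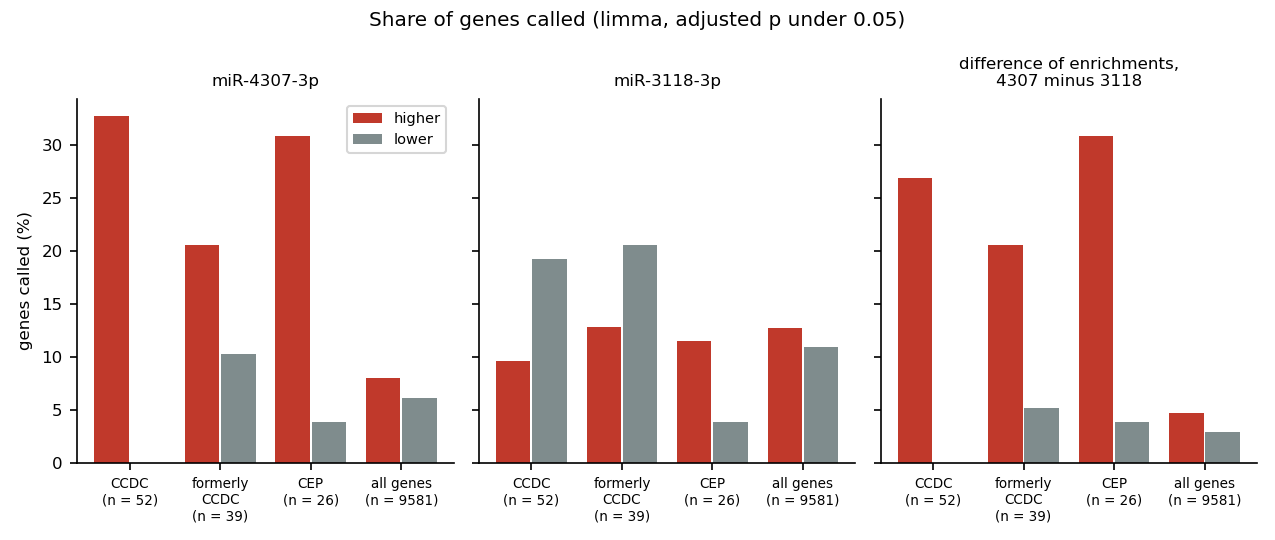
Share of genes called higher (red) and lower (grey) in percent for the CCDC genes, the genes once named CCDC, the CEP genes and all genes, in a panel for each microRNA and one for the difference of enrichments. With miR-4307-3p the bars for higher genes reach 32.7% for the CCDC genes and 30.8% for the CEP genes, against 8.04% of all genes.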

How the data were processed

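The log2 values are those of the series matrix the authors deposited, and the submitters' processing notes name lumi 2.2.1. Neither source says how arrays were normalized, which kind of log scale was used or how the 15025 probes were selected. A table of signals before normalization was not used, because its 12 value columns carry names that match no sample label; detection could therefore not be read. Groups and replicate numbers came from the titles. No pair of arrays was identical (0 pairs). The annotation gave 1 symbol for 12354 probes and several for 2, and it does not list 2669; 2 symbols were updated. Where probes shared a gene, the one brightest on average over the 12 arrays stood for it. limma 3.58.1 in R 4.3.3 (lmFit, eBayes) fitted 4 group means, with 8 residual degrees of freedom and two-sided p-values adjusted over 9581 genes, or over 15025 probes. The fit was tested on simulated data. Figures used matplotlib 3.10.9 in Python 3.11.15.

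The members, the lists of roles and the rule for named genes (all called members, CCDC112, members whose probes differ, the extremes of input level and those nearest to 0) were chosen with earlier results of these data known. CCDC51, first entered in 2 lists of roles, was kept in the mitochondrial one. Pull-down and input arrays of one number deviated from their group means with correlations of 0.204, 0.342 and 0.286 for miR-4307-3p. For miR-3118-3p they were 0.344, 0.0736 and 0.476. A pairing by number is therefore possible for either microRNA, and these values do not settle it. The main fit did not pair the arrays, and the replicate number entered only as an alternative.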

Additional observations from a re-analysis of the deposited data

Results flagged for a closer look

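Apart from CCDC112, the enrichments of 13 of 51 CCDC genes differed between the microRNAs by the test of the difference itself, all higher with miR-4307-3p than with miR-3118-3p. The differences were 1.93 for CCDC138, 1.81 for CCDC88A, 1.59 for CCDC59, 1.48 for CCDC66, 1.29 for CCDC90B, 1.21 for CCDC91, 1.17 for CCDC15, 1.12 for CCDC43, 0.88 for CCDC18, 0.80 for CCDC12, 0.73 for CCDC136, 0.71 for CCDC150 and 0.69 for CCDC121, on the log2 scale. CCDC112 had 2.49, given as a description because its value was known when the genes were chosen. The 13 genes were 25.5% of the 51, where 4.73% of all genes were higher. Since the family was chosen with earlier results of these arrays known, these calls are not an independent test, even without CCDC112.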

How the results depend on the processing

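Up to 23 other settings were run, 12 of which left out 1 array. With miR-4307-3p, 15 of the 17 calls, CCDC112 among them, held in every setting in which the gene was tested. So did 11 of the 14 in the difference of enrichments, CCDC112 again among them. The exceptions were CCDC8 and CCDC174, and CCDC18, CCDC121 and CCDC136. With miR-3118-3p 1 of the 15 calls did. The count higher with miR-4307-3p ranged from 12 to 21 over 11 settings and from 15 to 20 when 1 array was left out, and for the difference of enrichments from 12 to 18 and from 11 to 18. The shares of all genes moved too, from 7.63% to 16.6% and from 5.42% to 11% with miR-4307-3p. For the difference they ranged from 4.46% to 6.5% and from 3.71% to 6.18%. Both counts of 12 came from leaving out the dimmest genes. With miR-4307-3p, 4 genes were lower with array weights, 2 with the spread of those arrays alone and 1 with a replicate block within each microRNA, which was chosen after seeing the data; 16.9%, 12.3% and 9.62% of all genes were lower in these settings. None of the CCDC genes (0) was lower when any 1 array was left out, where from 2.44% to 10.1% of all genes were. In the difference of enrichments, the lower CCDC genes numbered 1 with the replicate block and 2 with that block within each microRNA. They numbered 1 with array weights and 1 with trend and robust eBayes. Of all genes 3.34%, 5.74%, 6.89% and 2.8% were lower in these settings. Leaving out 1 array gave from 0 to 2, where from 1.75% to 7.87% of all genes were lower. With miR-3118-3p the spread of those arrays alone gave 0 higher and 2 lower, against 6% and 4.27% of all genes. Leaving out 1 array gave from 1 to 9 higher and from 5 to 12 lower. Of all genes, from 8.48% to 17.7% were then higher and from 6.51% to 15.2% lower. Inputs had 0 calls in every setting run. Members whose probes shared a sign numbered from 2 to 5 (miR-3118-3p, 5 after quantile normalization), from 5 to 7 (miR-4307-3p) and from 4 to 6 (difference) when 1 array was left out. CCDC112 with miR-3118-3p, not called, ranged from -0.072 (without input replicate 2) to 0.13 when 1 array was left out, and was -0.045 without pull-down replicate 2. With the replicate block the counts were 18 higher and 0 lower for miR-4307-3p, 6 and 10 for miR-3118-3p and 15 and 1 for the difference. The shares of all genes there were 8.8% and 6.65%, 14.1% and 11.9%, and 5.1% and 3.34%. That block was applied to the arrays of both microRNAs, while the main fit used none. The spread of these arrays alone adds nothing to the difference of enrichments, and inputs cannot be compared with blocks within each microRNA. Leaving out the dimmest genes removed 5 of the 17 called with miR-4307-3p. The cause of these shifts was not tested. Signal over background is unknown, so dim genes are the least certain.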
